A study of Rattus norvegicus with 45 samples.

Results

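The expression of 8 genes of the myelin membrane and its lipids was examined across saline and heroin rats that carried 1 of 3 viral vectors in the ventral tegmental area (VTA), the midbrain region that holds the dopamine neurons of the reward system. The genes were chosen by their identifiers, Mbp (ENSRNOG00000016516), Opalin (ENSRNOG00000022386), Ugt8 (ENSRNOG00000009345), Fa2h (ENSRNOG00000018950), Aspa (ENSRNOG00000019659), Cldn11 (ENSRNOG00000010263), Gjb1 (ENSRNOG00000003746) and Enpp2 (ENSRNOG00000004089), from 32883 genes in the deposited values. All 8 were among the 22570 genes that were tested. Male wild-type Sprague-Dawley rats self-administered (SA) saline or heroin for 10 d, received an intra-VTA virus on day 11 and were killed after 30 d of abstinence. The virus was an empty vector, a vector for wild-type histone H3.3 (H3.3 WT) or a vector for H3.3 with glutamine 5 replaced by alanine (H3.3Q5A), a form that cannot be dopaminylated at that residue. The groups were saline empty (n = 7), saline H3.3 WT (n = 7), saline H3.3Q5A (n = 7), heroin empty (n = 8), heroin H3.3 WT (n = 7) and heroin H3.3Q5A (n = 8). Every rat, controls included, went through SA and abstinence and carried a virus with GFP, so no group lacked virus or surgery. The study's methods name an adeno-associated virus and its design text a lentivirus. The promoter of the vectors is not given in the sources used here. Each library came from polyA RNA of the GFP-guided tissue punch of 1 rat, and a further saline library whose title and treatment name different vectors was kept out of every group.

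Myelin is the lipid-rich membrane that oligodendrocytes wrap around axons in the brain. Mbp encodes myelin basic protein, which holds the cytoplasmic faces of that membrane together. Ugt8 encodes the enzyme that makes galactosylceramide, the typical glycolipid of myelin, and Fa2h the enzyme that adds the 2-hydroxyl group to the fatty acids of this lipid. Aspa encodes aspartoacylase, which splits N-acetylaspartate from neurons and so frees acetate for lipid synthesis. Cldn11 encodes the claudin of the tight junctions between myelin layers, Gjb1 the gap junction protein connexin 32, and Opalin a transmembrane protein of oligodendrocytes. Enpp2 encodes autotaxin, a secreted enzyme that makes lysophosphatidic acid; oligodendrocytes and choroid plexus both express it. In a bulk punch, fewer oligodendrocytes and less RNA per oligodendrocyte cannot be told apart.

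In rn6, the build of the files, Mbp lies on chromosome 18 from 79326737 to 79437310, Opalin on chromosome 1 from 260324027 to 260341723, Ugt8 on chromosome 2 from 229644381 to 229718659 and Fa2h on chromosome 19 from 43545377 to 43596801. Aspa lies on chromosome 10 from 59839851 to 59892960, Cldn11 on chromosome 2 from 115823537 to 115836846, Gjb1 on chromosome X from 71272041 to 71279977 and Enpp2 on chromosome 7 from 94480395 to 94563001. All 8 are annotated as protein coding, and each value counts reads over a gene's exons. RefSeq windows of the 250 bases before the gene start (GRCr8) had entries for 7 of the 8 genes, and 6 were searched. Their GC content ran from 39.2% for Aspa over 49.2% for Gjb1, 53.2% for Opalin, 64.8% for Cldn11 and 74.4% for Fa2h to 81.2% for Ugt8, where the median of 33469 windows was 51.2%. The windows of Opalin, Ugt8 and Aspa are shown because Opalin was the gene called in heroin rats and Ugt8 and Aspa had the highest and the lowest GC content of the 6. Capitals mark, on either strand, ACAAAG or ACAATG (letters bound by SOX factors), CAGCTG (an E-box), CTGGCAC (letters bound by MYRF) and GGGCGG (letters bound by SP1).
Opalin, chr1:249858191-249858440, minus strand: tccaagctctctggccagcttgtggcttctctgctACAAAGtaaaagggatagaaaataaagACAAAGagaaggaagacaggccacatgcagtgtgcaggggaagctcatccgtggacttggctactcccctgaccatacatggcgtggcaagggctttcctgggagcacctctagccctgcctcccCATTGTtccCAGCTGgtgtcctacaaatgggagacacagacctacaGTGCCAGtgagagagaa
Ugt8, chr2:217007168-217007417, minus strand: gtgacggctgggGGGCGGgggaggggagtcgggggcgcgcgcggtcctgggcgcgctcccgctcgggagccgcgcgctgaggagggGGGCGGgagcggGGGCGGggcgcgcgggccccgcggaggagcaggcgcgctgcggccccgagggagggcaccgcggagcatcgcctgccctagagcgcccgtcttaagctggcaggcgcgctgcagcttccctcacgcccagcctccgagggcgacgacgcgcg
Aspa, chr10:58439038-58439287, minus strand: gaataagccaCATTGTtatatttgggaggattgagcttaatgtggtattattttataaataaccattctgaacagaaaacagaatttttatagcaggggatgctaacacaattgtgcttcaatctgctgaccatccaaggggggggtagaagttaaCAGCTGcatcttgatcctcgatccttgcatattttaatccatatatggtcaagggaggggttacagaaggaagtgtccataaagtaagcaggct
ACAAAG was found in 1 of the 6 windows and in 16.3% of all windows, ACAATG in 2 of 6 and 11.1%, and CAGCTG in 2 of 6 and 12%. CTGGCAC was found in 1 of 6 windows and in 3.78% of all, and GGGCGG in 2 of 6 and 30.5%. The 6 windows did not share a base composition or any of these motifs, and a match describes letters and not binding.

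The deposited values are variance-stabilized read counts on a log2-like scale, so a difference of 1 is close to a doubling for well-read genes. Reads on genes ranged from 24308953 to 71104049 per library, with group medians from 34513499 in saline H3.3Q5A to 55197003 in saline empty rats. The 8 genes were well covered. Gjb1 had 806 to 4750 reads per rat, Aspa 1002 to 3602 and Mbp 185707 to 909252. In CPM (counts scaled to the library's reads on genes), Mbp ran from 5269 to 17532 with a median of 10423.

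Mbp was lowest in saline empty and heroin H3.3Q5A rats. Its lowest, median and highest deposited values were 17.9, 18.2 and 19.1 in saline empty rats and 18.1, 18.8 and 19.3 in heroin empty rats. They were 17.9, 18.7 and 19.2 in saline H3.3 WT and 18.5, 18.8 and 19.5 in heroin H3.3 WT rats. The H3.3Q5A groups had 18.6, 18.9 and 19.3 with saline and 17.6, 18.3 and 19.0 with heroin. Every pair of groups overlapped, and the single saline empty rat above 19 was rat 18, whose neighbour in that group stood at 18.3. By mean, saline empty rats were lowest in 7 of the 8 genes and heroin H3.3Q5A rats in Fa2h; saline H3.3Q5A rats were highest in 6 genes and heroin H3.3 WT rats in Opalin and Enpp2. To follow the genes together, each was centred on its own mean over the 44 rats and the 8 were averaged per rat. Saline empty rats had a mean of -0.343 ± 0.339 (SD, n = 7) and heroin H3.3Q5A rats one of -0.271 ± 0.347 (SD, n = 8). Heroin empty rats had 0.0958 ± 0.328 (SD, n = 8) and saline H3.3 WT rats 0.0653 ± 0.354 (SD, n = 7). The highest means were 0.235 ± 0.309 (SD, n = 7) for heroin H3.3 WT and 0.243 ± 0.181 (SD, n = 7) for saline H3.3Q5A rats. The rat's mean was above 0 in 1 of 7 saline empty rats (rat 18), in 2 of 8 heroin H3.3Q5A rats (rats 21 and 40) and in 6 of 7 saline H3.3Q5A rats.

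**Figure D1:**
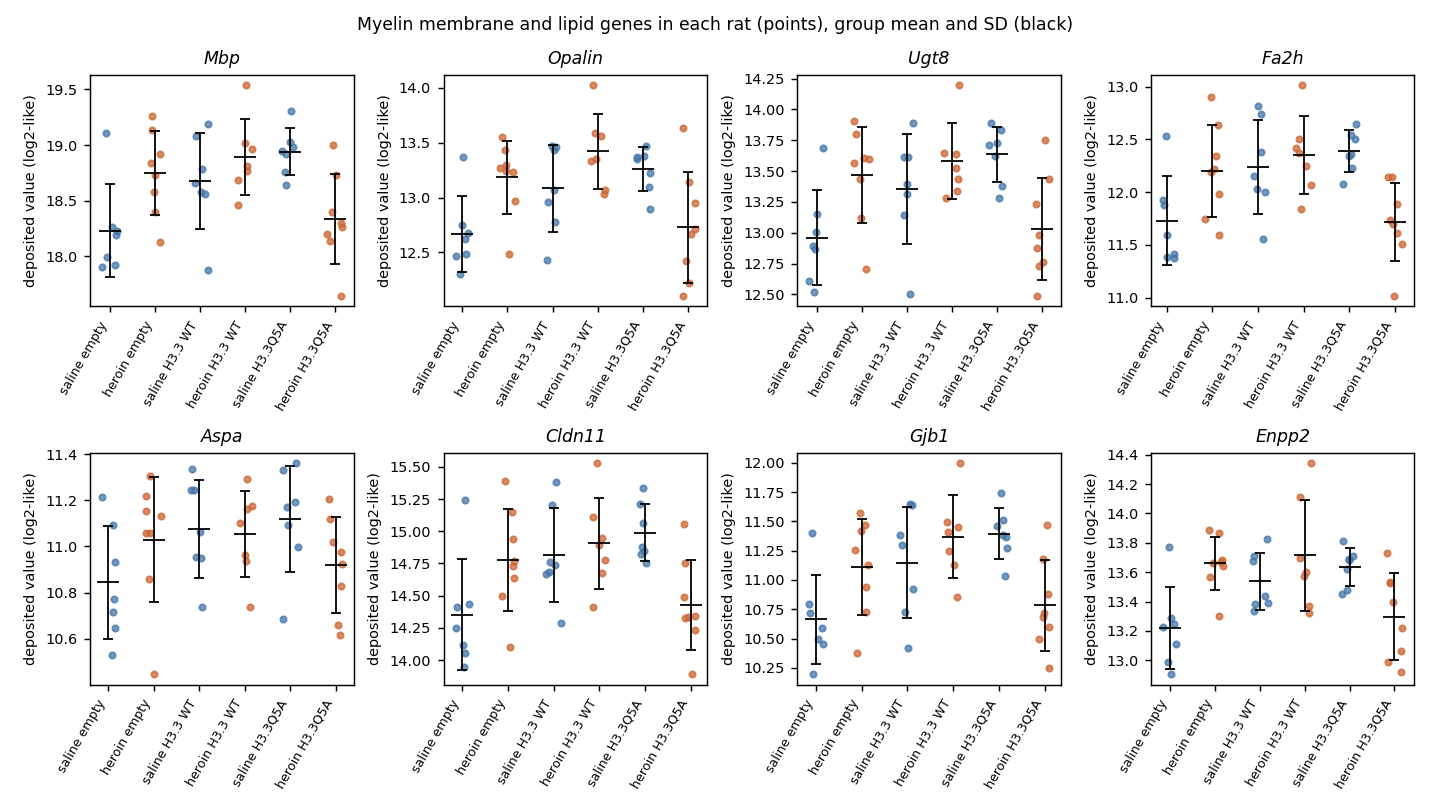
Deposited value (log2-like scale) of each of the 8 genes in every rat (points, blue for saline and orange for heroin) by group, with the group mean and SD in black. In most panels the saline empty and heroin H3.3Q5A groups sit lowest, all groups overlap, and 1 saline empty rat (rat 18) sits above the others of its group, at 19.1 for Mbp.

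Which genes changed with heroin was first asked within each vector. The values were fitted with limma over all 6 groups, and a gene was called a DEx gene at a Benjamini-Hochberg adjusted p under 0.05 with a log2 difference beyond 0.2. Differences are given as log2 differences of group means with 1 standard error (SE). In empty vector rats, limma called 0 of the 8 genes, where it called 0.155% of all genes. The values of all 8 were higher in heroin than in saline rats, with a median difference of 0.46 and a range from 0.19 for Aspa to 0.52 for Mbp, where the median of all genes was -0.01. For 7 of them the unadjusted p was under 0.05, which held for 18.2% of all genes. The list that gave their names is ordered by H3.3 WT against empty in saline rats, which shares the saline empty group. Of the genes in that list 24.3% had an unadjusted p under 0.05 here, so the share over all genes is not a matched base. Enpp2 had the lowest adjusted p, with a difference of 0.44 (SE 0.13, limma adjusted p = 0.0698), and all 8 heroin empty rats lay above the saline empty mean. Mbp differed by 0.52 (SE 0.19, limma adjusted p = 0.128), with 7 of 8 heroin empty rats above the saline empty mean. This count turned on single rats: 6 genes were called without saline empty rat 18, 4 without heroin empty rat 2 and 1 without heroin H3.3Q5A rat 21. Over all 22570 genes the count turned on single rats too, from 35 to 179 without saline empty rat 41 and to 0 without rat 42.

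In H3.3 WT rats the 8 genes differed less between heroin and saline, and 0 were called against 2.75% of all genes. The median difference was 0.20. None of the 8 had an unadjusted p under 0.05, which held for 15.7% of all genes and 23.8% of those in the naming list. Opalin had the largest, at 0.34 (SE 0.19, limma adjusted p = 0.391), and Aspa stood at -0.02 (SE 0.12), a value whose sign turned under median centring. The 95% interval of the Mbp difference ran from -0.17 to 0.61, so an increase like that in empty vector rats could not be told from none.

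In H3.3Q5A rats the difference had the other sign. All 8 genes had lower values in heroin than in saline rats, with a median difference of -0.58 (log2), and 7 had an unadjusted p under 0.05, as did 19.8% of all genes. After adjustment limma called 0 of 8, against 0.505% of all genes. Fa2h had the largest difference, -0.67 (SE 0.19, limma adjusted p = 0.0599), and all 8 heroin H3.3Q5A rats lay below the saline H3.3Q5A mean. Gjb1 followed with -0.61 (SE 0.19, limma adjusted p = 0.0708), Mbp with -0.61 (SE 0.19, limma adjusted p = 0.0717) and Ugt8 with -0.60. Aspa was the smallest, at -0.20 (SE 0.11, limma adjusted p = 0.328). Here too 1 rat decided the count. Heroin H3.3Q5A rat 21 had the highest value of its group for 7 of the 8 genes, and without it 7 genes were called; 1 was called without saline empty rat 18, heroin empty rat 7, heroin H3.3 WT rat 11 or heroin H3.3Q5A rat 40. The count also turned on the fit. With voom on the recovered reads, 0 of the 8 genes were called for heroin within any of the 3 vectors. With 1 residual factor, estimated from the same values after the group means, 7 of the 8 were called with empty and 7 with H3.3Q5A. That fit called 1633 and 1528 of all 22570 genes there, so calls rose over all genes as well. Counts under the other alternatives are given below.

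**Figure D2:**
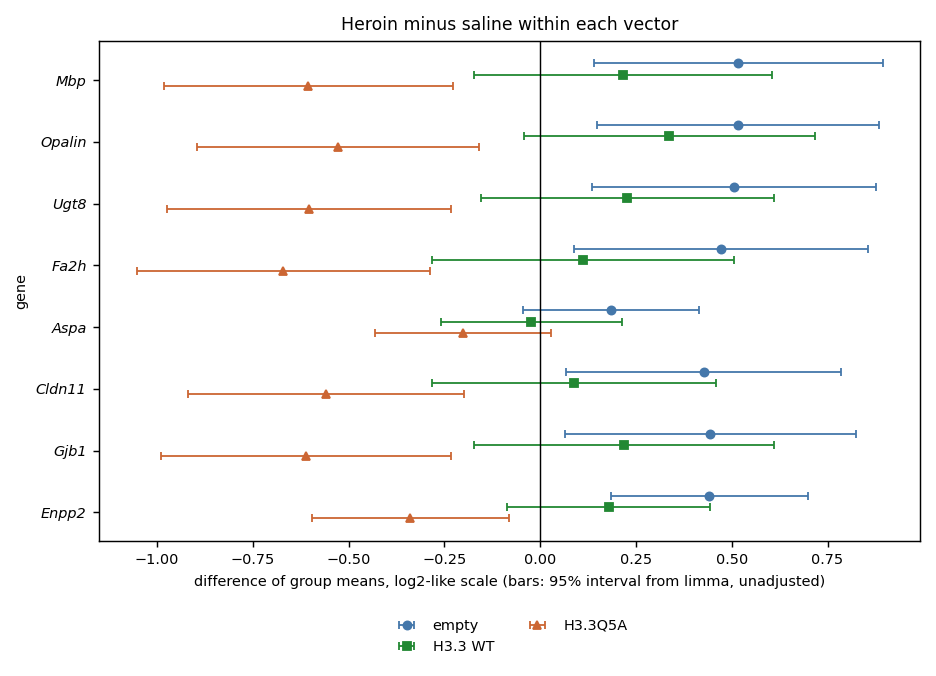
Heroin minus saline difference of group means (log2-like scale, x axis) for each gene (y axis) within empty (blue circles), H3.3 WT (green squares) and H3.3Q5A rats (orange triangles), with unadjusted 95% intervals from limma. The differences lie right of 0 with the empty vector, from 0.19 to 0.52, and left of 0 with H3.3Q5A, from -0.67 to -0.20.

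The difference between these heroin effects was tested as an interaction. Against the empty vector, the heroin effect with H3.3Q5A had lower values for all 8 genes, and limma called 7, where it called 7.03% of all genes lower (14% in either direction). The median interaction was -1.05 on the log2 scale, against 0.02 over all genes. All 8 stand in the list that gave the gene names, which is ordered by a comparison with saline empty rats. Of the genes in that list 45.1% had an unadjusted p under 0.05 in this interaction, against 28.5% of all genes. Fa2h had -1.14 (SE 0.27, limma adjusted p = 0.00442), Mbp -1.12 (SE 0.26, limma adjusted p = 0.0045) and Ugt8 -1.11 (SE 0.26, limma adjusted p = 0.00439). Gjb1 stood at -1.06, Opalin at -1.04, Cldn11 at -0.99 and Enpp2 at -0.78, with limma adjusted p between 0.00407 and 0.00731. Aspa was not called, at -0.39 (SE 0.16, limma adjusted p = 0.098). With any 1 rat left out, 7 or 8 genes were called, the 8 without saline empty rat 18, saline H3.3Q5A rat 33 or heroin empty rat 2. Quantile normalization left 6, because it puts values in order of rank and so held the Mbp interaction at -0.05. It called 3088 of all 22570 genes.

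Against H3.3 WT the interaction was called for 4 of 8 genes, all lower, with 3.19% of all genes called lower (7.93% in either direction). These were Opalin at -0.87 (SE 0.26, limma adjusted p = 0.0319), Ugt8 at -0.83 (SE 0.26, limma adjusted p = 0.0425), Gjb1 at -0.83 (SE 0.27, limma adjusted p = 0.0471) and Mbp at -0.82 (SE 0.27, limma adjusted p = 0.049). Fa2h at -0.78, Cldn11 at -0.65, Enpp2 at -0.52 and Aspa at -0.18 were not called. All 4 calls were lost without saline H3.3 WT rat 23 or 44, saline H3.3Q5A rat 28, heroin H3.3 WT rat 11 or 38, or heroin H3.3Q5A rat 25, 26 or 43, and 7 genes were called without heroin H3.3Q5A rat 21. One call was left without saline H3.3 WT rat 4 or 50, saline H3.3Q5A rat 30, 32, 46 or 47, heroin H3.3 WT rat 20, or heroin H3.3Q5A rat 24 or 39. A pair of calls was left without saline empty rat 10, 13, 41 or 42, heroin empty rat 6, 14 or 16, or heroin H3.3Q5A rat 37. The interaction of H3.3 WT over the empty vector was called for 0 of the 8 genes and 0% of all genes. Its median was -0.27, and voom on recovered reads called 0 as well. None of the 8 had an unadjusted p under 0.05, against 5.04% of all genes and 16.2% of the genes in the naming list. These interactions share groups with each other and with the comparisons below.

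Whether H3.3Q5A altered these genes relative to the control vectors was asked separately in heroin and in saline rats. Among heroin rats, Opalin had lowest, median and highest values of 12.10, 12.69 and 13.63 with H3.3Q5A, of 13.03, 13.35 and 14.03 with H3.3 WT and of 12.48, 13.25 and 13.55 with the empty vector. The groups overlapped, with most H3.3Q5A rats below most control rats. Against H3.3 WT, Opalin was 0.69 lower on the log2 scale (log2 difference -0.69, SE 0.18, limma adjusted p = 0.0291), with 7 of 8 H3.3Q5A rats below the H3.3 WT mean. It was the 1 of 8 genes called, where 0.687% of all genes were called lower (2.71% in either direction). Fa2h differed by -0.63 (limma adjusted p = 0.0541), Gjb1 by -0.58 (limma adjusted p = 0.0711), Mbp by -0.56 (limma adjusted p = 0.0836) and Aspa by -0.13 (limma adjusted p = 0.604). The Opalin call was lost without heroin H3.3 WT rat 11 or 38 or heroin H3.3Q5A rat 25, 26 or 43. The count rose to 7 without heroin H3.3Q5A rat 21, to 4 without heroin H3.3 WT rat 9 or heroin H3.3Q5A rat 40 and to 3 without saline empty rat 18. It was 2 without saline H3.3 WT rat 8 or 44, heroin empty rat 2 or 7, or heroin H3.3 WT rat 3 or 51.

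Against heroin empty rats, the H3.3Q5A values of all 8 genes were lower (median log2 difference -0.39), and limma called 0, against 3.21% of all genes. For 6 of them the unadjusted p was under 0.05, which held for 19.6% of all genes. Enpp2 had -0.36 (SE 0.12, limma adjusted p = 0.0791) and Fa2h -0.48 (SE 0.18, limma adjusted p = 0.119). Without heroin H3.3Q5A rat 21, 3 genes were called, and 1 without heroin empty rat 2 or 21. The voom fit called 0, and the fit with 1 residual factor called most of the 8, as given below. Fa2h was below the mean of either control group in all 8 heroin H3.3Q5A rats.

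Among saline rats H3.3Q5A had the highest mean of the 3 vectors for all 8 genes. Gjb1 had lowest, median and highest values of 10.2, 10.6 and 11.4 in saline empty, 10.4, 11.3 and 11.6 in saline H3.3 WT and 11.0, 11.4 and 11.7 in saline H3.3Q5A rats. All 7 saline H3.3Q5A rats lay above every saline empty rat but rat 18, which stood among them. All 8 genes had higher means with H3.3Q5A than with the empty vector, and their median difference was 0.65 against -0.01 over all genes. Of the 8, 6 were called, where 3.23% of all genes were called higher (4.94% in either direction). All 8 stand in the list that gave the gene names, which is ordered by H3.3 WT against empty in saline rats. Of the genes in that list 56.3% had an unadjusted p under 0.05 here, against 23.7% of all genes. The share over all genes is therefore not a matched base for the 8. Gjb1 was higher by 0.73 (SE 0.19, limma adjusted p = 0.0253), Mbp by 0.71 (SE 0.19, limma adjusted p = 0.0278), Ugt8 by 0.67 (SE 0.19, limma adjusted p = 0.0311) and Fa2h by 0.66 (SE 0.20, limma adjusted p = 0.0387). Cldn11 was higher by 0.64 (limma adjusted p = 0.034) and Enpp2 by 0.42 (limma adjusted p = 0.0498). Opalin at 0.59 (limma adjusted p = 0.0522) and Aspa at 0.28 (limma adjusted p = 0.142) were not called. All 7 saline H3.3Q5A rats lay above the saline empty mean in 7 genes and 6 of 7 in Aspa.

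The count of 6 fell to 0 without saline empty rat 15 or 22 or saline H3.3Q5A rat 28, to 1 without saline empty rat 42 or saline H3.3Q5A rat 32, and to 3 without saline empty rat 41 or saline H3.3Q5A rat 30. Over all 22570 genes the count fell as well, from 1116 to 166 without saline empty rat 22, 604 without rat 42 and 719 without rat 41. With no filter on low values, 1 of the 8 was called, as were 618 of 32883 genes. Saline empty rats are the control of this comparison and also enter the interaction over the empty vector. Against saline H3.3 WT rats, H3.3Q5A differed by a median of 0.17 and limma called 0 of 8 genes, against 0.00886% of all genes; none of the 8 had an unadjusted p under 0.05 (11.7% of all genes had), and voom called 0. The 95% interval for Mbp ran from -0.13 to 0.65.

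**Figure D3:**
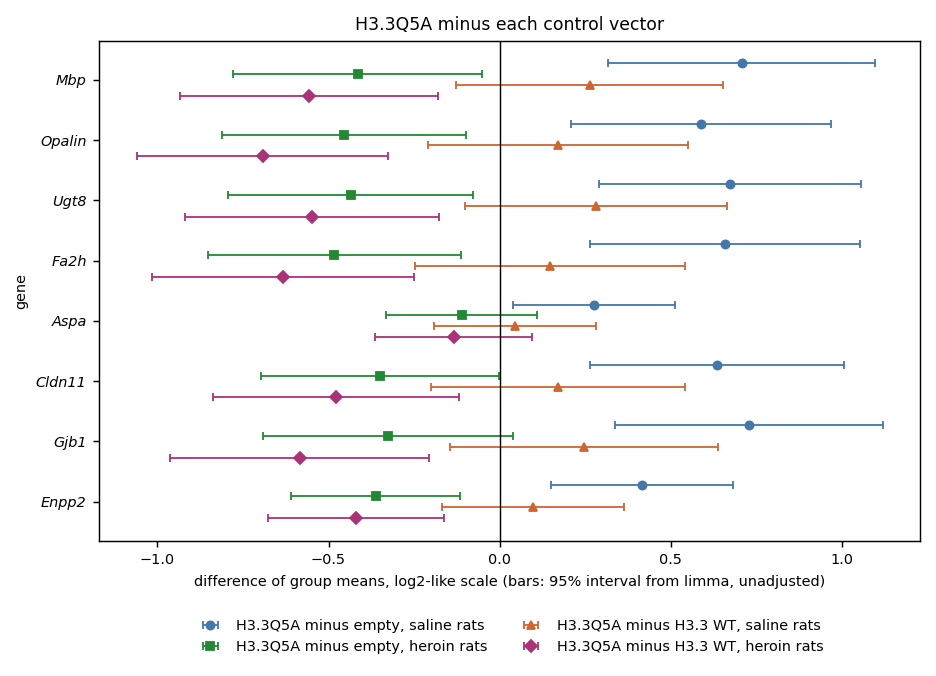
H3.3Q5A minus control difference of group means (log2-like scale, x axis) for each gene (y axis), against the empty vector and H3.3 WT in saline and in heroin rats, with unadjusted 95% intervals from limma. In saline rats the differences are right of 0 (0.28 to 0.73 against the empty vector), and in heroin rats they are left of 0 (-0.69 to -0.13 against H3.3 WT).

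The control vectors were compared with each other for the same genes. In heroin rats H3.3 WT and empty differed by a median of 0.14, with 0 of 8 genes and 0% of all genes called by limma and no unadjusted p under 0.05 among the 8 (5.66% of all genes had one), and with 0 called by voom. The largest difference was that of Gjb1, 0.26 (95% interval -0.12 to 0.64). In saline rats H3.3 WT values were higher than empty values by a median of 0.43, from 0.23 for Aspa to 0.51 for Fa2h, with 0% of all genes called. These saline values are given as a description, because gene names came from a list ordered by that very comparison: 93.1% of its named genes had an unadjusted p under 0.05 there, against 16.8% of all genes. The share among named genes was also higher for H3.3Q5A against empty in saline rats (56.3% against 23.7%), for the interaction of H3.3Q5A over empty (45.1% against 28.5%) and for heroin against saline in H3.3Q5A rats (35% against 19.8%). It was closer in heroin rats for H3.3Q5A against empty (22.2% against 19.6%) and against H3.3 WT (25.8% against 17.4%). For heroin against saline it was 24.3% against 18.2% with empty and 23.8% against 15.7% with H3.3 WT. For the interaction of H3.3 WT over empty it was 16.2% against 5.04%, and for that of H3.3Q5A over H3.3 WT 25.6% against 21.1%. It was 12.9% against 11.7% for H3.3Q5A against H3.3 WT in saline rats and 8.21% against 5.66% for H3.3 WT against empty in heroin rats.

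The 8 genes varied together from rat to rat. In 28 pairs over the 44 rats, Pearson's r ran from 0.688 to 0.974 with a median of 0.872, and 12 pairs reached 0.9. The tightest pair was Fa2h and Cldn11 (r = 0.974, Spearman's rho = 0.974) and the loosest Aspa and Enpp2 (r = 0.688, rho = 0.771). Every pair had a permutation p of 1e-05, raw and adjusted over the 28, the smallest that 100000 permutations can give. With the 2 rats farthest from the median left out, r was 0.971 for Fa2h and Cldn11 and 0.750 for Aspa and Enpp2. After the group means were removed, r over the pairs ran from 0.649 to 0.967, so the genes also varied together within groups. All values of a rat come from 1 library and share its depth and its mix of cells.

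**Figure D4:**
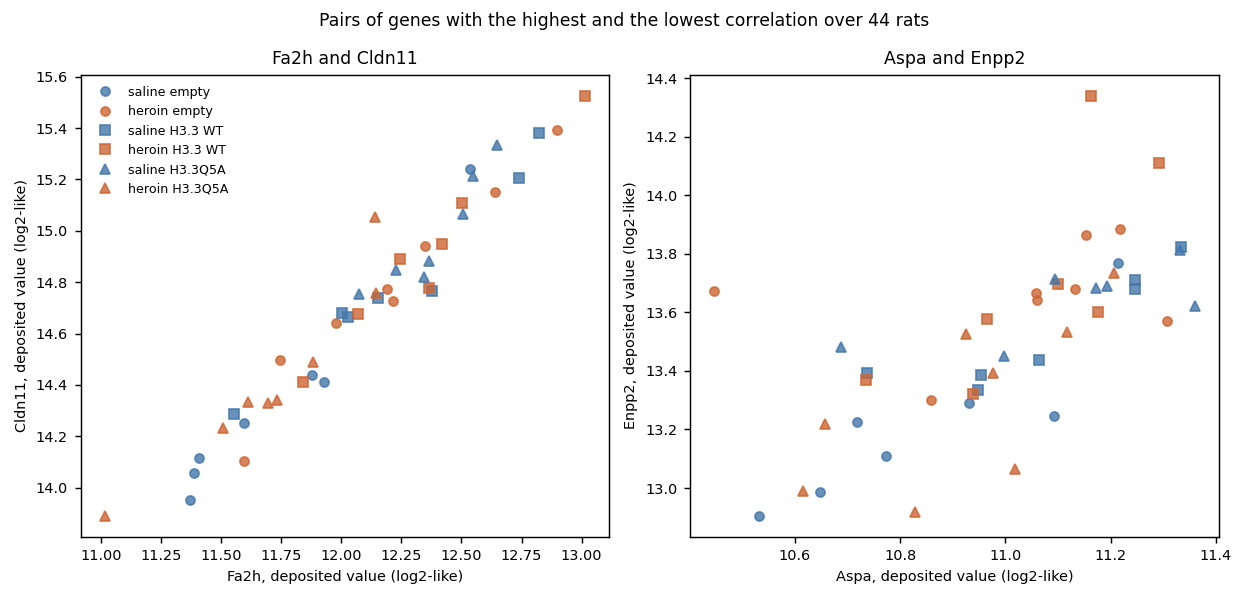
Deposited values (log2-like scale) of Fa2h against Cldn11 (left) and Aspa against Enpp2 (right), 1 point per rat, with colour for saline or heroin and shape for the vector. The first pair lies close to a line over all groups (r = 0.974), and the second scatters more (r = 0.688).

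Aspa and Enpp2 moved less than the others. The slope of each gene on the mean of the other 7 was 0.464 for Aspa and 0.668 for Enpp2, and between 1.06 (Cldn11) and 1.17 (Mbp) for the remaining 6. The SD within groups was 0.228 for Aspa and 0.256 for Enpp2 and from 0.359 to 0.383 for the others, where the median of all genes was 0.143. Aspa had the smallest difference of the 8 in every comparison with a call, and also the smallest SE. Enpp2 combined smaller differences with smaller SEs, and its adjusted p was the lowest of the 8 for heroin against saline in empty vector rats and for the interaction over the empty vector.

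Of the 22562 other genes tested, 191 had an r of 0.9 or more with the mean of the 8 genes over the 44 rats, and 522 had 0.8 or more. The highest were Tmem88b (r = 0.986), Tf (r = 0.984), which encodes the iron carrier transferrin, Ttyh2 (r = 0.983), Mobp (r = 0.981), which encodes a basic protein of myelin, and a gene known here only by its identifier, ENSRNOG00000000775 (r = 0.980). Removing the group means changed the r of these genes by little, to 0.984 for Tmem88b and 0.974 for Ttyh2. Only 1989 of these other genes have names, so the order names a part of them.

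Other genes of myelin were read from lists by role, as far as they could be named. Of 24 genes for other myelin proteins 14 were named, and their values followed the 8 genes. In the interaction over the empty vector all 14 were called lower, with a median of -1.02, where 7.03% of all genes were called lower. Among them were Cntn2, an adhesion protein of myelinated axons (-0.82, limma adjusted p = 0.00174), and Mobp (-1.19, limma adjusted p = 0.00221). Against H3.3 WT 9 of 14 were called lower (3.19% of all genes were). All 14 had higher values with H3.3Q5A than with empty in saline rats, with a median of 0.63, and 12 were called (3.23% of all genes were called higher), such as Cntn2 (0.50, limma adjusted p = 0.0188) and Gpr37 (0.64, limma adjusted p = 0.0207). In heroin rats all 14 had lower values with H3.3Q5A than with H3.3 WT, from -0.64 to -0.28, and 4 were called (0.687% of all genes were called lower), among them Car2, a carbonic anhydrase (-0.59, limma adjusted p = 0.0289), Gpr37 (-0.58, limma adjusted p = 0.0327) and Pllp (-0.58, limma adjusted p = 0.0486). Heroin against saline called 0 of the 14 within any vector, with medians of 0.44 with empty, 0.21 with H3.3 WT and -0.56 with H3.3Q5A.

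Of 31 genes of lipid and cholesterol synthesis and turnover 7 were named. In saline rats 6 of the 7 had higher values with H3.3Q5A than with empty, and 3 were called (3.23% of all genes were called higher). These were Gal3st1 (0.70, limma adjusted p = 0.0186), which sulfates galactosylceramide, the product of Ugt8, Lpar1 (0.55, limma adjusted p = 0.0367), a receptor for lysophosphatidic acid, the product of Enpp2, and Elovl1 (0.45, limma adjusted p = 0.0449), which lengthens fatty acids. In the interaction over the empty vector 6 of the 7 had values below 0, where 7.03% of all genes were called lower. Gal3st1, Lpar1 and Elovl1 were the 3 called, at -1.03, -0.90 and -0.66. Dhcr7, which makes the last step to cholesterol, stood at -0.16 there and was not called. In heroin rats Dhcr7 was the 1 lipid gene called, lower with H3.3Q5A than with H3.3 WT (-0.22, limma adjusted p = 0.0189), where 0.687% of all genes were called lower. Whether Dhcr7 differs from the galactolipid genes was not tested.

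Of 9 transcription factors of the oligodendrocyte lineage 5 were named. All 5 (Olig1, Olig2, Sox10, Myrf and Nkx2-2) were called higher with H3.3Q5A than with empty in saline rats, where 3.23% of all genes were. Their differences ran from 0.53 to 0.70, such as Olig2 (0.59, limma adjusted p = 0.0158). In the interaction over the empty vector 4 were called lower (7.03% of all genes were), Myrf with -1.05 (limma adjusted p = 0.00409). Over H3.3 WT 1 was called lower, Olig2 (3.19% of all genes were). Olig1 was lower in heroin than in saline H3.3Q5A rats (-0.56, limma adjusted p = 0.0491), where 0.505% of all genes were called. It was the 1 call of the myelin, lipid and oligodendrocyte lists for heroin within a vector. Of 7 genes of oligodendrocyte precursors 3 were named (Cspg4, Gpr17 and Enpp6) and none was called in the 12 comparisons. Their medians were 0.33 for H3.3Q5A against empty in saline rats and -0.38 for the interaction over the empty vector. All genes named here come from the list ordered by H3.3 WT against empty in saline rats, so they are no independent sample of their pathways.

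Markers of other cells could be read only in part, since 1 of 11 neuronal, 1 of 8 microglial, 1 of 7 meningeal and 1 of 5 Schwann cell markers had names, and none for dopamine neurons, astrocytes, endothelium, choroid plexus or the H3.3 genes themselves. The labelled tissue, the transgene and choroid plexus as a source of Enpp2 could therefore not be checked. Pmp22 was the only named gene of the Schwann cell list, and 1 gene does not measure the content of such cells. Over the 44 rats Mbp followed Pmp22 (r = 0.820, rho = 0.867, permutation p = 1e-05, adjusted over 6 relations 3e-05), also within groups (r = 0.844) and without the 2 farthest rats (r = 0.822). It followed Cx3cr1 of microglia less closely (r = 0.654, rho = 0.739, permutation p = 1e-05, adjusted 3e-05; within groups 0.552, without the 2 farthest rats 0.639). Mbp did not track Eno2 of neurons (r = 0.137, rho = 0.176, permutation p = 0.38, adjusted 0.456), the log2 read total (r = -0.153, rho = -0.180, permutation p = 0.318, adjusted 0.456) or the rat number (r = -0.109, rho = -0.0958, permutation p = 0.481, adjusted 0.481), and with Col1a1 of meninges r was -0.254 (rho = -0.231, permutation p = 0.0971, adjusted 0.194) and -0.0314 within groups.

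By group, Cx3cr1 ran from 9.83 to 10.3 in saline empty and from 10.3 to 10.9 in saline H3.3Q5A rats, and was called higher there (0.49, limma adjusted p = 0.0201) and lower in the interaction over the empty vector (-0.50, limma adjusted p = 0.0369). Col1a1 ran the other way: in heroin rats it was higher with H3.3Q5A than with H3.3 WT (1.55, limma adjusted p = 0.0159), with 9.87 to 13.03 against 8.77 to 10.64, and than with empty (1.18, limma adjusted p = 0.0481). In H3.3 WT rats it was lower with heroin than with saline (-1.91, limma adjusted p = 0.00315). Its interaction was 1.56 over the empty vector (limma adjusted p = 0.0356) and 2.82 over H3.3 WT (limma adjusted p = 0.000657), its largest value in the 12 comparisons. Pmp22 and Eno2 were called in none of the 12 comparisons. Rat numbers here are the digits at the end of the sample titles, and the same number in different groups means different rats. They ran from 2 to 21 in heroin empty, from 28 to 47 in saline H3.3Q5A and from 21 to 43 in heroin H3.3Q5A rats, so vector and rat number partly ran together. With rat number as a covariate, 7 of the 8 genes kept an interaction call over the empty vector and 4 a call for H3.3Q5A against empty in saline rats. That fit called 3041 and 716 of all 22570 genes there. The part of the other cells in these differences was not tested.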

How the data were processed

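RNA-seq of VTA punches was analysed for 44 rats in 6 groups taken from the sample labels. The authors aligned reads with HISAT2 2.1.0 to Rnor_6.0, removed reads with several alignments, counted them with featureCounts 2.0.1 from a library kit that keeps no strand and normalized with DESeq2 2.11.40.6. The authors deposited variance-stabilized counts (a scale close to log2), with no RUVr factor subtracted. Inverting the scale gave whole reads (tolerance 0.05) for 100% of values. Their number limits the precision. Values were fitted with limma 3.58.1 in R 4.3.3, with an intensity trend, on 22570 genes that exceeded the minimum value in 7 or more libraries. Replicates are separate rats.

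Genes, lists and contrasts were chosen with earlier results of these data known. The files pair no symbols with identifiers, so names and rn6 coordinates came from 1998 rows of a supplementary list (symbols and positions only). At most 4 genes of a list, by lowest adjusted p, and the 5 most alike genes were to be named; the precursor genes, Pllp, Elovl1, Dhcr7, the full set of transcription factors and single markers were named after their values were seen. Promoter windows came from RefSeq (GRCr8); results for some genes and sequences are not reported here. Correlations had 100000 permutations, two-sided. Alternatives were no filter, median centring, quantile normalization, 1 or 3 residual factors, only the groups compared, voom on recovered reads, the log2 read total or rat number as covariate, both readings of the conflicting library, and leaving out each rat. The fit was tested on simulated data.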

Additional observations from a re-analysis of the deposited data

Results flagged for a closer look

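Saline empty rat 18 had the highest value of its group for all 8 genes, and passed Dixon's criterion at 95% in 3, with Mbp at 19.11 (others 17.907 to 18.264), Opalin at 13.374 (others 12.303 to 12.752) and Cldn11 at 15.24 (others 13.951 to 14.438). Heroin H3.3 WT rat 11 had the highest value of its group for 7 of the 8 genes (for Enpp2 it was rat 20) and passed the criterion for Ugt8, at 14.198 (others 13.281 to 13.651). These were 4 of 48 groups of values, where the criterion marks about 2.4 by chance, and the genes of a rat are not independent.

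The heroin effect differed between vectors by the interaction test of limma. For H3.3Q5A over the empty vector the values were -1.1227 for Mbp, -1.0441 for Opalin, -1.1083 for Ugt8, -1.1422 for Fa2h, -0.98566 for Cldn11, -1.0556 for Gjb1 and -0.77933 for Enpp2. For H3.3Q5A over H3.3 WT they were -0.82143 for Mbp, -0.865 for Opalin, -0.82955 for Ugt8 and -0.83089 for Gjb1.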

How the results depend on the processing

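Every median difference of the 8 genes kept its direction under all alternatives. Of the values of single genes, 4212 of 4224 did not turn sign with 1 rat left out, and 1055 of 1056 under the other alternatives. A value of 0 was counted as not turned. Quantile normalization held Mbp at 0 in every comparison without heroin H3.3Q5A rats and at -0.05 in those with them. The Mbp differences of the main fit were therefore not kept there. Counts of called genes moved more. With 1 residual factor 7 of 8 were called for heroin against saline with empty and with H3.3Q5A, for H3.3Q5A against empty and against H3.3 WT in heroin rats and for the interaction over H3.3 WT, and 5 for H3.3 WT against empty in saline rats. Of all 22570 genes, the same fit called 1633, 1528, 1837, 1618, 2863 and 320 in these comparisons, in that order. With 3 residual factors the counts among the 8 were 7, 8, 7, 7, 7 and 8, and 4 were called for heroin against saline with H3.3 WT, 3 for H3.3Q5A against H3.3 WT in saline rats, 1 for H3.3 WT against empty in heroin rats and 1 for the interaction of H3.3 WT over empty. Of all 22570 genes, that fit called 2322, 2412, 2388, 2190, 3760 and 1927 in the former comparisons and 1862, 1292, 195 and 356 in the latter. Residual factors are estimated from the same values after the group means and lower the spread. Median centring gave 1 for heroin against saline with empty, 5 with H3.3Q5A, 3 for H3.3Q5A against empty and 6 against H3.3 WT in heroin rats, and 7 for the interaction over H3.3 WT. It called 780, 977, 2199, 1222 and 3657 of all 22570 genes in these comparisons, in that order. It also put the median of all genes at -0.10 in the interaction over empty and at -0.11 over H3.3 WT, where the median of the 8 genes was -1.17 and -0.92. With only the groups compared, heroin against saline with H3.3Q5A had 3 calls, where 447 of all 22570 genes were called. The Opalin call in heroin rats was lost (0) with no filter, with only the groups compared and with rat number as covariate. Those fits called 344 of 32883, 0 of 22570 and 570 of 22570 genes there. With no filter 1 was left for H3.3Q5A against empty in saline rats (618 of 32883 genes) and 0 for the interaction over H3.3 WT (1371 genes). The latter had 2 under quantile normalization, where 1584 of all 22570 genes were called. It had 1 with the log2 read total (1405 genes) or rat number (1694) as covariate or the conflicting library placed by treatment (1185). For the counts that moved, the cause was not tested.

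With 1 rat left out, counts ranged from 0 to 6 for heroin against saline with empty, 0 to 7 with H3.3Q5A, 0 to 3 for H3.3Q5A against empty and 0 to 7 against H3.3 WT in heroin rats, 0 to 7 for H3.3Q5A against empty in saline rats, 7 to 8 for the interaction over empty and 0 to 7 over H3.3 WT. All other comparisons had 0 in every such fit. The number of all genes called moved in such fits too, so these counts do not describe the 8 genes alone. The sign turned only for values near 0. For heroin against saline with H3.3 WT, Aspa was 0.04066 under median centring, and with 1 rat left out it ran from -0.07935 to 0.0299, above 0 without saline H3.3 WT rat 8, 27 or 49 or heroin H3.3 WT rat 9. In that comparison Fa2h ran from -0.002833 (without saline H3.3 WT rat 44) to 0.2088 and Cldn11 from -0.01495 (without heroin H3.3 WT rat 11) to 0.1824. Aspa ran from -0.01253 (without saline H3.3 WT rat 44) to 0.1159 for H3.3Q5A against H3.3 WT in saline rats. For H3.3 WT against empty in heroin rats, Aspa ran from -0.05981 to 0.0762, below 0 without heroin empty rat 2 or 21 or heroin H3.3 WT rat 11, and Enpp2 from -0.04752 to 0.1221, below 0 without heroin H3.3 WT rat 11 or 20. No paired analysis was possible, because each rat had 1 drug and 1 vector and the groups compared held different rats.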

Other observations

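The library left out of every group, a saline rat whose title names H3.3Q5A and whose treatment names H3.3 WT, had Mbp at 18.70, Opalin at 13.32, Ugt8 at 13.50, Gjb1 at 11.22, Aspa at 11.06 and Enpp2 at 13.49, all within the ranges of both saline groups that its labels name. Fa2h at 12.07 and Cldn11 at 14.59 lay within the range of saline H3.3 WT and just under that of saline H3.3Q5A rats. The mean of its 8 centred genes was 0.0683.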
